A study of Rattus norvegicus with 6 samples.

Results

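Olfactory receptor families 1 and 2 comprised 194 of the 14506 genes that an array of rat cortical neurons named alone on a probe set. Members were the genes whose symbol begins with Or1 or Or2 followed by a subfamily letter, 88 in family 1 and 106 in family 2, spread over 49 subfamilies. A member was represented by its probe set of highest mean, which was a choice for only 2 genes. No intensity threshold was applied. The neurons came from the cortex of Sprague-Dawley rat embryos at day 18 and were grown for 3 days in NB-N2 medium. One group was exposed for 3 h to 10 nM C1q, the recognition molecule of the classical complement pathway (3 arrays, C1q 1 to 3), and the other was left untreated (3 arrays, untreated 1 to 3). The labels do not state whether the 3 arrays of a group came from separate cultures or embryos, so the p-values rest on array-to-array spread alone, and that spread may be technical.

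Olfactory receptors are G protein-coupled receptors of the cilia of olfactory sensory neurons, where each mature neuron expresses a single receptor allele. Odorant binding activates the G protein subunit encoded by Gnal, then adenylyl cyclase 3 (Adcy3), and the cyclic AMP opens a channel built from Cnga2, Cnga4 and Cngb1. The receptor genes lie in tandem clusters, each gene with a coding sequence in a single exon, and cortical neurons are not known for expressing them. The question here was where on the intensity scale such genes read, which members read above that level, and whether any of them differed after C1q.

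All 194 members are annotated as protein coding in the RefSeq table of the GRCr8 rat assembly. Of these, 183 gene models have a length that is a multiple of 3, with a median of 942 bases, so most models hold coding sequence alone. The opening of the coding sequence was available from RefSeq for 162 members, as the 50 bases from the start codon (GRCr8). The sets below are shown because probe sets of close copies may bind RNA of more than 1 gene. The first holds Or1f26, whose fold change on the log scale used below was exceeded among members only by that of Or1p1e. With a smaller constant added before taking logs, dim members exceeded Or1f26 as well. The set also holds Or1f21, whose opening is closest to that of Or1f26 among the openings available, and the annotated neighbour Or1f27. Its other genes are Or1f28, another Or1f gene above 100 in level, and Or1f20e, the dimmest Or1f gene. Capitals mark bases that differ from the first line of a set. They lie on the minus strand at chr10:12809608-12809657 for Or1f26, chr10:12551547-12551596 for Or1f21, chr10:12794430-12794479 for Or1f27, chr10:13029145-13029194 for Or1f28 and chr10:12656396-12656445 for Or1f20e.
Or1f26: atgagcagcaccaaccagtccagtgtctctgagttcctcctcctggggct
Or1f21: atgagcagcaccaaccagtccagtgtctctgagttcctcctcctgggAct
Or1f27: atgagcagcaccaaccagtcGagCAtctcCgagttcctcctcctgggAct
Or1f28: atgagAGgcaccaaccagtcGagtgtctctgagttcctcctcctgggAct
Or1f20e: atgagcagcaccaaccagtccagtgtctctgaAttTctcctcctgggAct

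The second set holds Or2ak5, the brightest member, on the plus strand at chr10:43854076-43854125, with Or2ak5f at chr10:43768636-43768685. The last set holds the pair Or2a51 (chr4:73012829-73012878) and Or2a20 (chr4:73031919-73031968), both on the plus strand, whose openings are the same in all 50 bases.
Or2ak5: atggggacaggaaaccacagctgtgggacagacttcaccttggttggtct
Or2ak5f: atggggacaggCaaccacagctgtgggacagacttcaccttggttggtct
Or2a51: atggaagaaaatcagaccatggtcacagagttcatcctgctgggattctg
Or2a20: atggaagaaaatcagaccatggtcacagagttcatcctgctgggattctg

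Most members read low. The level of a gene is given here as the intensity that corresponds to its mean log2(intensity + 16) over the 6 arrays. Fold changes compare the group means on this same log scale, unless another added constant is named. They are therefore not ratios of mean intensities. The 194 levels had a median of 37.17, quartiles of 25.02 and 55.84 and a 95th percentile of 113.3, and ran between 5.123 and 400.3. Of all 29215 probe sets, 16.8% lay below the members' median, against a median of 149.7 over all of them. Readings of different probe sets depend on their probes as well as on RNA, so an order of levels is an order of readings and not of transcript amounts.

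Other receptor genes of the chemical senses read in the same range. The 1020 olfactory receptor genes of families 3 to 14 and 51 to 56, vomeronasal receptor genes and taste receptor genes had a median of 28.69 and a 95th percentile of 82.25, which is used below as the limit for members. The medians were 28.46 for families 3 to 14, 37.29 for families 51 to 56, 21.38 for vomeronasal and 34.68 for taste receptor genes. Family 1 had a median of 34.36 and family 2 of 42.84. The 55 measured genes specific to tissues such as liver, testis, eye and skin had a higher median of 59.74. The 7 measured cortical neuron markers lay far above all of these, between 1776 for Gad1, which encodes a GABA-synthesising enzyme, and 8010 for Tubb3, a neuronal tubulin gene.

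**Figure D1:**
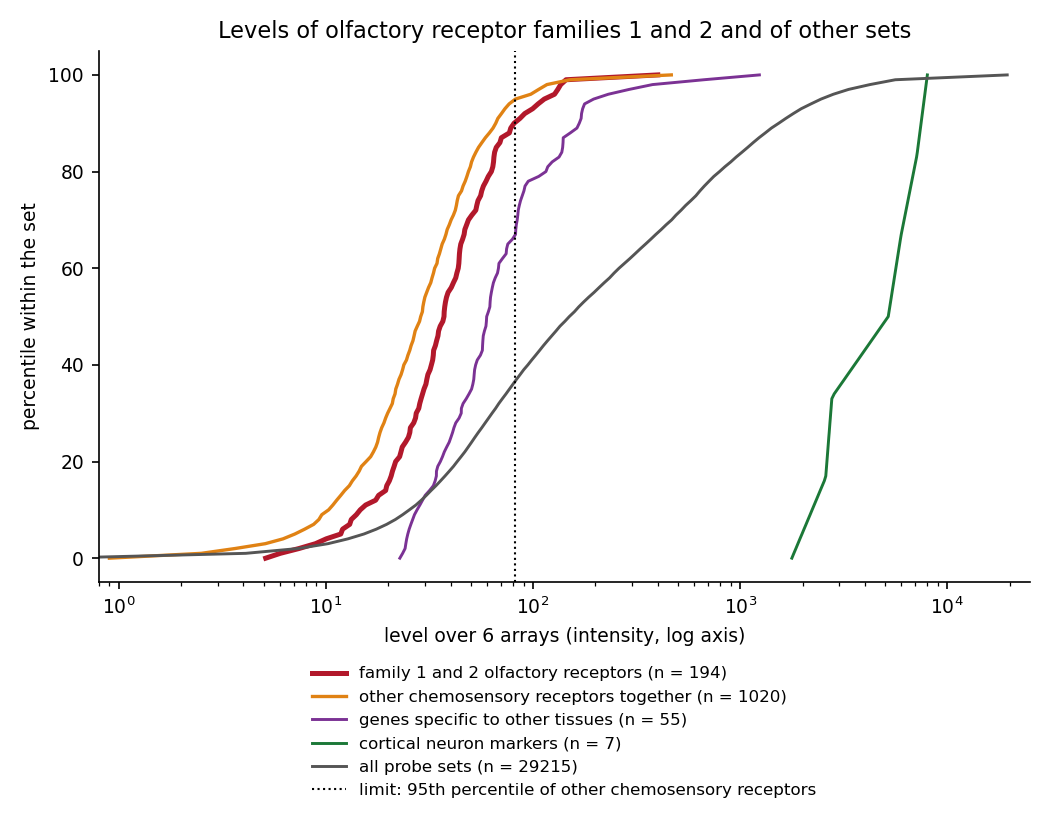
Percentile within each set (vertical axis) against level over 6 arrays in intensity units (log axis), for the family 1 and 2 olfactory receptors, other chemosensory receptors, genes specific to other tissues, cortical neuron markers and all probe sets. The members' curve runs close to that of the other chemosensory receptors, with a median of 37.17 against 28.69, and the dotted line at 82.25 marks the limit.

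The low readings differed between arrays. The members' median intensity was 35.5, 35.0 and 37.0 on C1q arrays 1 to 3, against 34.5, 43.1 and 37.6 on untreated arrays 1 to 3. Untreated array 2 stood above the other 5, and untreated array 1 had the lowest median, so the untreated group spanned the C1q group. Of the 194 members, 82 (42.3%) had their highest value on untreated array 2, where 23.3% of all probe sets had theirs. The other chemosensory receptors showed the same array on top, with medians of 27.8, 27.5 and 29.3 on C1q arrays 1 to 3 and 26.8, 32.3 and 28.7 on untreated arrays 1 to 3. Over all probe sets the upper quartile of untreated array 2 was the lowest of the 6, at 592.2, and that of untreated array 1 the highest, at 631.5.

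**Figure D2:**
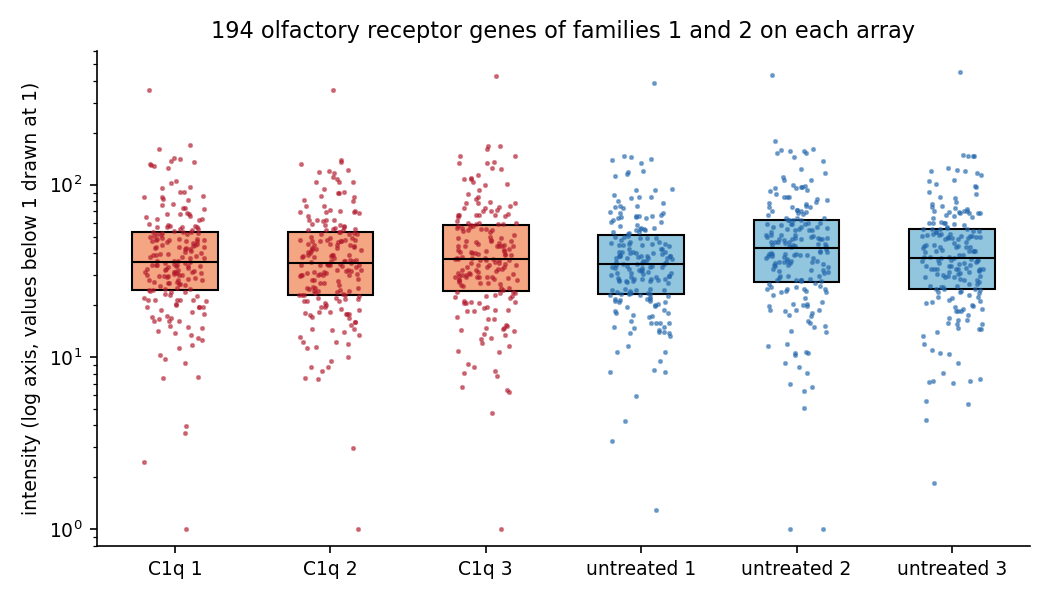
Intensity (log axis) of each of the 194 members on the C1q arrays (left, red) and the untreated arrays (right, blue), with boxes from the lower to the upper quartile and a line at the median. Untreated array 2 has the highest median, 43.1, and the other 5 medians lie between 34.5 and 37.6.

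The scatter between arrays of a group was wide for these genes. The median within-group standard deviation on the log2(intensity + 16) scale was 0.171 for members, 0.166 for other chemosensory receptors, 0.109 for all probe sets and 0.0597 for the cortical neuron markers. For 22 members the level was below 16, the constant added before taking logs. The 3 lowest levels belonged to Or1e28 (5.123), Or2ak4e (5.303) and Or1e22 (6.076). Or1e28 read 0.512, 9.96 and 14.1 on C1q arrays 1 to 3, against 8.12, 0.0212 and 1.84 on untreated arrays 1 to 3. The groups overlapped, and each held both near-zero and higher readings. Or2ak4e read 12.8, 2.95 and 8.11 on the C1q arrays, against 3.23, 0.0162 and 7.06 on the untreated arrays. In all, 5 of the members' readings fell below 1.

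Above the limit of 82.25 lay 19 members, or 9.79%, 8 of family 1 and 11 of family 2, where the definition of the limit puts 5.0% of the other chemosensory receptors. Of those 19 members, 11 lay above the limit of the array itself on all 6 arrays. A single member, Or2ak5, remained with a stricter limit at the 99th percentile of the other chemosensory receptors (150.7), at the upper Tukey fence of the members themselves (150.5), or at the 95th percentile of genes specific to other tissues (196.1). Just inside the limit lay Or2ak5e at 83.01, and just outside it Or2av9 at 81.72. The brightest genes of families 3 to 14 and of families 51 to 56 had levels of 465.1 and 430.4, above the 400.3 of Or2ak5.

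Or2ak5 read 357.0, 357.0 and 429.6 on C1q arrays 1 to 3, against 387.6, 430.9 and 449.7 on untreated arrays 1 to 3. All 6 readings lay far above the limit, and the groups overlapped. Its level of 400.3 was 2.72 times that of the next member and lay at the 67.4th percentile of all probe sets. Its mean was 381 ± 41.9 after C1q and 423 ± 31.9 in untreated neurons (SD, n = 3 each), which is 0.904-fold (95% interval 0.791 to 1.03). Other genes of the Or2ak subfamily ranged down to 5.303, and Or2ak5f, which differs from Or2ak5 in 1 of the 50 opening bases, had a level of 19.71.

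The next 11 members by level lay between 106.0 and 147.0. Or2y13 read 161.9, 116.5 and 167.2 on the C1q arrays, against 119.8, 180.0 and 147.1 on the untreated arrays, and its groups overlapped over nearly their whole range. Or2ag13 read 135.1, 136.2 and 161.8 after C1q, against 141.3, 144.8 and 146.6 in untreated neurons. Or1a1 read 141.6, 118.6 and 147.6 after C1q, against 146.8, 158.4 and 148.5 in untreated neurons, and only C1q array 2 stood apart. The human receptor OR1A1 responds to carvone and citronellal. Or1d2 read 132.4, 138.9 and 133.8 after C1q, against 133.2, 153.8 and 119.4 in untreated neurons, and the C1q values lay within the untreated range. Human OR1D2 is known as a sperm receptor for bourgeonal.

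Or2y1g, Or2b11, Or1f20b and Or2at1 had levels of 133.0, 131.4, 129.4 and 122.9, and each had its highest value on untreated array 2. Their fold changes were 0.960, 1.02, 0.942 and 1.03, and none passed. Or2ak6e, at a level of 108.4, read 124.5, 103.6 and 123.1 after C1q, against 87.6, 110.6 and 105.1 in untreated neurons, with a fold change of 1.14 (95% interval 0.954 to 1.36). Or2a51, at 106.0, read 104.6, 89.6 and 103.5 after C1q, against 138.5, 123.1 and 84.6 in untreated neurons, with a fold change of 0.890 (95% interval 0.706 to 1.12). Both overlapped between the groups.

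**Figure D3:**
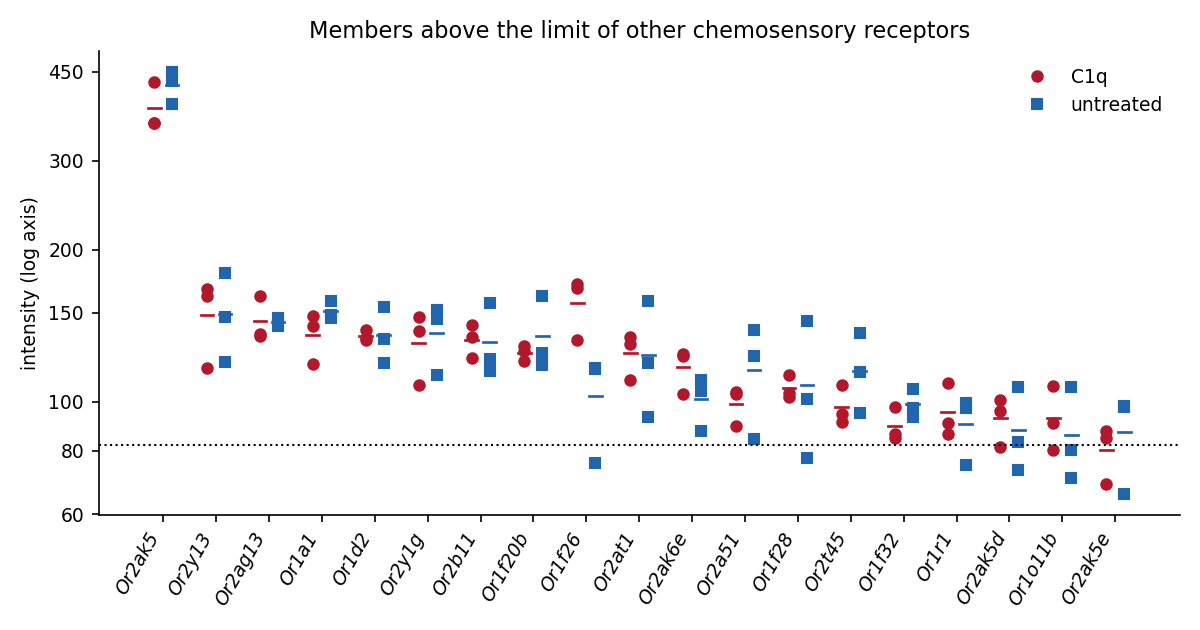
Intensity (log axis) on each array for the 19 members above the dotted limit of 82.25, ordered by level, with C1q arrays as red circles on the left and untreated arrays as blue squares on the right of each gene and short lines at the group means. Or2ak5 stands apart at 357.0 to 449.7, and of these 19 genes Or1f26 is the one whose groups do not overlap.

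Bright and dim members lay side by side in the same gene clusters. With a gap of more than 1 Mb ending a cluster, the members fell into 19 clusters or single genes, and 8 clusters of 10 or more held 165 of them. Chromosome 10 carried 91 members and 15 of the 19 above the limit. Chromosome 3 carried 29 members, none above the limit, and chromosome 20 carried 22 members with 1 above it. By subfamily, the median levels were 25.40 for 19 Or1e genes, 28.41 for 18 Or1j genes, 47.48 for 17 Or1f genes, 52.79 for 12 Or2ak genes and 56.28 for 11 Or2y genes.

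Among the 162 members with a sequence, 59 had a partner that matched them in at least 48 of 50 opening bases, and 19 of these had one that matched in all 50. In the 11 pairs with identical openings the brighter gene read between 1.04 and 10.5 times the dimmer. Or2a51 and Or2a20, printed above as identical, had levels of 106.0 and 10.09. The median difference in level was 0.739 on the log2 scale over the 69 pairs matching in at least 48 bases. It was 0.621 over the 11 identical pairs and 0.593 over all 13041 pairs. Genes recur across the 69 pairs, many of them Or2ak genes, so the pairs are not independent, and these differences were not tested. The openings are a small part of each coding sequence, and the positions of the array's probes were not used here, so the value of any single member remains uncertain where close copies exist.

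Or1f26 lies between Or1f27 and Or1f34 in a cluster of 18 members on chromosome 10 that reaches from Or2c1 to Or1f28. Its opening matched those of 13 other Or1f genes in 41 to 49 of 50 bases. No opening was available for Or1f20b, Or1f20d and Or1f34. Levels in the cluster ran between 9.094 for Or1f20e and 129.4 for Or1f20b. Its neighbour Or1f27 read 47.9, 47.4 and 44.2 after C1q, against 40.5, 62.5 and 49.1 in untreated neurons. Or1f34 on the other side read 33.6, 36.0 and 40.7 after C1q, against 44.8, 38.7 and 30.6 in untreated neurons. Both neighbours overlapped between the groups, with fold changes of 0.945 and 0.980, whose direction turned in 1 and 3 of the alternatives. Or1f21, whose opening differs from that of Or1f26 in 1 base, read 42.4, 51.7 and 56.3 after C1q, against 29.8, 56.1 and 53.4 in untreated neurons, a fold change of 1.08 (95% interval 0.822 to 1.41).

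**Figure D4:**
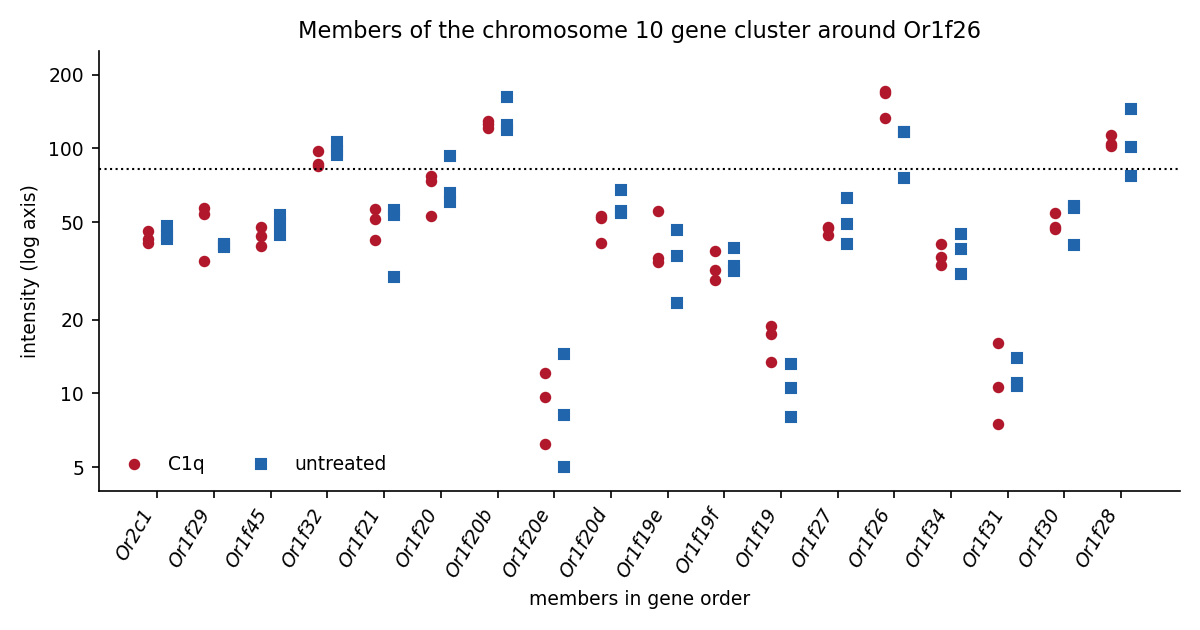
Intensity (log axis) on each array for the 18 members of the chromosome 10 cluster around Or1f26, in gene order, with C1q arrays as red circles on the left and untreated arrays as blue squares on the right of each gene. Levels in the cluster run between 9.094 and 129.4, and the C1q values of Or1f26 lie above its untreated values while those of Or1f27 and Or1f34 overlap.

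The comparison of C1q with untreated neurons used limma over all 29215 probe sets, with Benjamini-Hochberg adjustment over all of them and a call at an adjusted p under 0.05. In a bulk culture, fewer cells of a type and less RNA per cell cannot be told apart. No member was called in either direction, and every member had an adjusted p of 1.0 (limma). Over all probe sets 0 (0%) were called higher and 1 (0.00342%) lower, and the 1 called had no gene name. At an unadjusted p under 0.05, 3 members were higher, or 1.55%, against 0.852% of all probe sets, and 4 were lower, or 2.06%, against 2.01%. The 2 groups did not overlap for 5 members with higher values after C1q, or 2.58%, against 1.88% of all probe sets, and for 10 with lower values, or 5.15%, against 5.18%. Both shares of lower members were close to those of all probe sets, of which 13582 name no gene. Of the 15310 probe sets naming 1 gene, 132 were lower at limma's unadjusted p under 0.05, and 709 had separated groups with lower values. Both shares of higher members, which rest on 3 and 5 genes, were above those of all probe sets. Of the 1020 other chemosensory receptors, 14 were higher at limma's unadjusted p under 0.05, and 22 had separated groups with higher values. Over both directions, 3.61% of members and 3.43% of the other chemosensory receptors had an unadjusted p under 0.05 (limma). The shares were 2.86% of all probe sets and 1.3% of those naming 1 gene. These differences were not tested.

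Means were higher after C1q for 74 members and lower for 120, at a median log2 fold change of -0.04, beside -0.02 for all probe sets, of which 62.0% had lower means. After quantile normalization or median centring 87 members were higher and 107 lower, or 55.1% lower, beside 50.1% and 47.5% of all probe sets. Without untreated array 2, on which more members peaked than on any other, 101 were higher and 93 lower, or 47.9% lower, beside 61.7% of all probe sets, so members and all probe sets then lay on opposite sides of an even split. Members spread in fold change as other probe sets of their level did. Set against the 5th and 95th percentile of the log2 fold change of all probe sets in the same band of levels, 8 members (4.12%) lay below and 10 (5.15%) above. For 193 of the 194 members the 95% interval excluded a 2-fold change either way, as it did for 99.5% of all probe sets, on a scale with 16 added to each intensity, which understates changes of dim genes.

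Or1f26 read 170.9, 132.6 and 167.8 on C1q arrays 1 to 3, against 75.7, 116.3 and 116.9 on untreated arrays 1 to 3. All 3 C1q arrays lay above all 3 untreated arrays, and untreated array 1 lay well below the other 5. The mean was 157 ± 21.3 after C1q and 103 ± 23.6 in untreated neurons (SD, n = 3 each). The log2 fold change was 0.55 ± 0.15 (SE), or 1.47-fold (95% interval 1.16 to 1.86), and limma's unadjusted p was 0.00429 with an adjusted p of 1.0. An exact two-sided permutation test gave p = 0.1, the smallest that 3 arrays against 3 allow. Without untreated array 1 the log2 fold change was 0.38, and its adjusted p over the alternatives ran between 0.143, with limma's array weights (4.40 for untreated array 3, and 0.391 to 1.58 for the others), and 1.0. Among the 4862 probe sets with a level between 64 and 128, the fold change of Or1f26 ranked 9 from the top. The gene was singled out from these same arrays for its difference, so the difference is a description.

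The 3 globin genes among 6 blood markers measured were separated between the groups in the same direction as Or1f26, although none of the 6 passed (adjusted p of 1.0 each, limma). Hbb, a beta-globin gene, read 1083, 1167 and 1216 after C1q, against 889.1, 1055 and 964.5 in untreated neurons. Hbb, Hbb-b1 and Hba-a3 had higher values on all C1q arrays, with log2 fold changes of 0.25, 0.22 and 0.17. Alas2, Pf4 and Ppbp overlapped, at -0.02, -0.02 and 0.02. The summed intensity of the 6 was 3362 to 3593 after C1q and 2900 to 3329 in untreated neurons. All 6 read above the limit of 82.25. Their part in the reading of Or1f26 was not tested.

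Or1p1e had the highest fold change of the members on the log scale used here. It read 34.2, 48.7 and 59.8 after C1q, against 18.7, 28.1 and 32.6 in untreated neurons. With 16 added to each intensity this was 1.49-fold (95% interval 1.14 to 1.95, limma's unadjusted p = 0.00785). The groups did not overlap, although the lowest C1q value and the highest untreated value were close. Its level of 35.36 lay just below the members' median. Or1p1, whose opening is identical in all 50 bases, had a level of 47.71. Its log2 fold change was -0.11, in the other direction and with overlapping groups. The log2 fold changes of Or1e27b, Or1e28 and Or2ak4e were 0.31, 0.30 and 0.30, all at low levels and with overlapping groups. With a pseudocount of 1 added before taking logs they were 0.71, 1.08 and 1.28, against 0.82 for Or1p1e and 0.62 for Or1f26. With a pseudocount of 64 Or1f26 (0.41) exceeded Or1p1e (0.30). The order of the highest fold changes therefore depended on the added constant. Or1f19, at a level of 13.35, read 13.4, 17.6 and 18.8 after C1q, against 13.2, 10.6 and 8.03 in untreated neurons, and its groups were separated by a narrow gap.

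On the lower side Or1o2c read 14.2, 18.1 and 14.7 after C1q, against 19.9, 39.6 and 41.8 in untreated neurons. With 16 added to each intensity this was 0.649-fold (95% interval 0.493 to 0.854, limma's unadjusted p = 0.00544). The groups did not overlap, and untreated array 1 lay near the C1q arrays. Or1e20b read 9.24, 12.3 and 12.95 after C1q, against 23.3, 19.7 and 21.2 in untreated neurons. This was a clear gap at very low readings, with means of 11.5 ± 1.98 after C1q and 21.4 ± 1.85 in untreated neurons (SD, n = 3 each). With 16 added to each intensity the fold change was 0.734 (95% interval 0.609 to 0.886), nearer 1 than the ratio of these means. Or1e20b had the smallest unadjusted p of the members, 0.00409 (limma). Or2ak5b read 12.5, 24.1 and 16.9 after C1q, against 36.0, 32.1 and 21.4 in untreated neurons, with overlapping groups and a fold change of 0.738. Or1j20 read 33.5, 36.7 and 34.9 after C1q, against 45.3, 44.0 and 48.95 in untreated neurons, with no overlap and a fold change of 0.823. Or2ag20 and Or1e22 had log2 fold changes of -0.29 and -0.31 with overlapping groups. None of these genes passed over all probe sets.

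**Figure D5:**
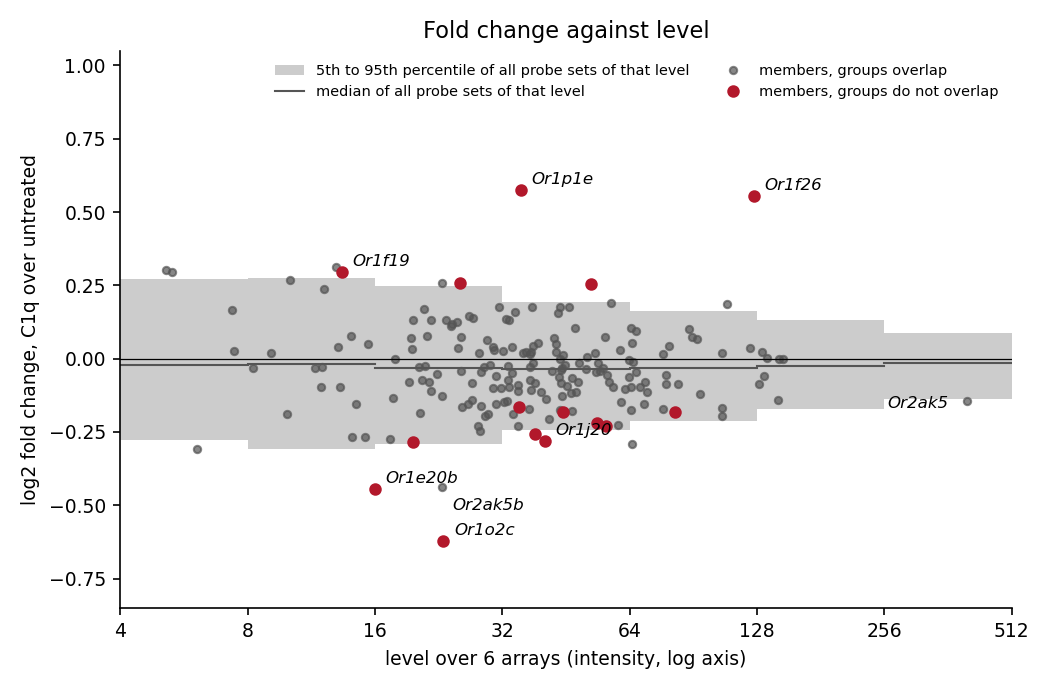
Log2 fold change of C1q over untreated neurons (vertical axis) against level (intensity, log axis) for the 194 members, with red points for those whose groups do not overlap. The grey band spans the 5th to 95th percentile of all probe sets of that level, with a line at their median; 8 members lie below it and 10 above, with Or1p1e and Or1f26 highest and Or1o2c lowest.

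The partners of these receptors in olfactory signalling were measured for 19 of 21 listed genes, and none passed. Of the 19, 9 had higher and 10 lower means after C1q, and 13 lay above the limit. The highest levels were those of Gnb1 (9329), a G protein beta subunit gene, Reep1 (2276), a membrane-shaping protein gene, Camk2b (1993), a calmodulin-dependent kinase gene, and Ric8b (788.2), a chaperone of the olfactory G protein. Gnal and Adcy3, which also act in brain neurons outside the nose, had levels of 653.7 and 267.7. Other genes listed here as markers of olfactory sensory neurons lay on both sides of the limit. Cngb1 and Rtp1, a receptor transport gene, had levels of 106.3 and 102.5. Omp, the olfactory marker protein gene, read 67.7, 60.2 and 76.7 after C1q, against 79.95, 84.0 and 73.9 in untreated neurons. Cnga2 and Cnga4 had levels of 24.36 and 18.30, within the members' lower range, and Rtp2, the relative of Rtp1, 76.78.

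Of the 9 olfactory sensory neuron markers measured, 4 lay above the limit (Gnal, Adcy3, Cngb1 and Rtp1), and the summed intensity over all 9 was 1336 to 1371 after C1q and 1310 to 1430 in untreated neurons. Of 5 astrocyte markers 4 lay above the limit, with a median of 130.3, led by Slc1a3 (459.4), a glutamate transporter gene. Of 5 microglial markers 1 did, Csf1r (87.36), a growth factor receptor gene. The smallest unadjusted p in the signalling list belonged to Omp (0.143), Stoml3 (0.248), Cnga2 (0.378) and Grk3 (0.475). Of 16 listed regulators of receptor choice, 14 were measured and 12 lay above the limit, led by Ldb1 (3470), Kdm1a (2545), Cbx5 (2004) and Lhx2 (1384). Ldb1 and Lhx2 act together at olfactory receptor enhancers in the nose, and Lhx2 is also a cortical progenitor gene. Of these 14 genes, 4 had higher and 10 lower means after C1q, and none passed.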

How the data were processed

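Total RNA of 6 samples was hybridised as biotin-labelled cRNA to Affymetrix arrays, per the labels' protocols. The authors deposited 1 intensity per probe set on a linear scale for 29215 probe sets; how it was summarised and normalized is not given in the sources used here. Signal over background is unknown, since detection calls were not used. Genes were named from the platform annotation, checked against RefSeq (GRCr8, 0 symbols changed): 15310 probe sets name 1 gene, 323 several and 13582 none. Of the 323, 26 name a gene of these families beside other genes and were not used. Values were analysed as log2(intensity + 16) without rescaling, since array medians over all probe sets differed by at most 0.0696 on that scale. The members' own array medians, 34.5 to 43.1 in intensity, spread more widely, so that reason does not cover the low range. In limma 3.58.1 (R 4.3.3), lmFit and eBayes (trend on intensity) were run on all probe sets and gave the 95% intervals. Precision is limited by the 6 arrays. The fit was also run on simulated data with planted shifts, as a check of the code alone, and no result here rests on it.

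The members, lists and limit were chosen with earlier results of these data known. Named members were Or1f26 and its neighbours, the 12 highest and 3 lowest levels, the 5 highest and 5 lowest fold changes, and those with an unadjusted p under 0.05. Of the lists the highest levels and, for signalling, the smallest p were named. Or1f21, Or1f20e, Or1f28, Or2ak5f, Or2a20, Or1p1, Or2ak5e and Or2av9 were named after their values were seen, as were the other genes named for lists. Alternatives covered scaling, a filter on dim probe sets, pseudocounts of 1 and 64, variance models, array weights, a block for replicate number, the choice of probe set, the limit and leaving out each array.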

Additional observations from a re-analysis of the deposited data

How the results depend on the processing

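No member was called under any of the 16 alternatives run, 0 higher and 0 lower, though a filter that kept the brightest 60% of probe sets left only 14 members to test. Or1f26 kept its direction and stayed uncalled in all 15 of its alternatives, with log2 fold changes of 0.38 to 0.66 and adjusted p of 0.143 to 1.0 (limma), and leaving out each array in turn spanned that same range of fold changes. Its groups do not overlap, so leaving out an array, another pseudocount or array weights could not have turned its direction. Over all probe sets the counts were 1 higher and 10 lower with array weights, 0 lower with the brightest 60%, and 2 lower with the replicate block. Leaving out each array gave 0 to 3 higher and 1 to 2 lower, with both highest counts made without untreated array 2. Deviations from the group mean correlated at 0.00975, -0.308 and -0.0694 for same-numbered arrays 1 to 3. Unlike-numbered pairs ran between -0.247 and 0.295. With 3 arrays per group these values cannot decide whether the numbers pair the samples, which the labels do not state. The block called no member. The members' median level stayed between 35.62 and 37.97 without single arrays. The number above the limit was 18 to 20 without single arrays, 11 when required on all 6 arrays, and 1 under each of the 3 stricter limits. Of 24 other named members, 10 changed direction in at least 1 alternative. Or2y13 had log2 fold changes of 0.0122 with quantile normalization, 0.0241 with median centring, 0.0273 with array weights and -0.13 to 0.15 without single arrays. Or2ag13 had 0.0244 with quantile normalization, 0.0237 with median centring and -0.0795 to 0.0377 without single arrays, and with array weights Or2a51 had 0.12 and Or1f34 0.11. Without single arrays the values ran over -0.0757 to 0.0877 for Or1d2, -0.17 to 0.0375 for Or1f20b, -0.19 to 0.0427 for Or1f27, -0.13 to 0.06 for Or1f34, -0.13 to 0.21 for Or2at1, -0.0532 to 0.14 for Or2b11 and -0.18 to 0.0588 for Or2y1g. The cause was not tested. Depth in the sense of signal over background is unknown, so changes of the dimmest members cannot be bounded as changes of RNA.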

Other observations

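Both members with a second probe set had low readings on each. Or2w1, whose human counterpart is broadly tuned, had levels of 25.6 on the probe set used and 17.9 on the other, with log2 fold changes of 0.07 and 0.01. Or2b2 had levels of 20.7 on the probe set used and 15.1 on the other, with log2 fold changes of -0.07 and 0.14, so that its probe sets went opposite ways within wide intervals. Among the 55 genes specific to other tissues, 18 lay above the limit of 82.25, led by Prm1, a sperm protamine gene, at 1238, Ins2, an insulin gene, at 392.0 and Ttr, the transthyretin gene of liver and choroid plexus, at 242.2.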
